A study of Mus musculus with 14 samples.

Results

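Myh15 encodes a sarcomeric myosin heavy chain, a motor protein of striated muscle, and its contacts with the chromosome on either side were read here from Capture Hi-C of mouse embryonic stem cells. In the RefSeq annotation of GRCm38.p6, whose coordinates are those of mm10, the gene body lies at chr16:49057400-49199563 on the plus strand and spans 142.2 kb. All 15 bins of 10 kb that overlap it, from 49050001 to 49200000, were taken out of the 535 bins of each contact matrix. A boundary bin starting at 49020001 separates the gene from the Cip2a gene. The 350 bins left of that bin are called the left side, and the 167 bins right of the gene are called the right side. Only pairs of bins at least 20 kb apart were used. The gene was chosen by the measured values of its left-side contact, which differed between both matrices, so that difference is given as a description and without a test.

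Hi-C cuts and rejoins DNA inside nuclei, and a read pair that links distant positions records that they lay close together. Most contacts fall off with distance, and boundaries between chromosome domains lower contact further for pairs that lie on opposite sides of them. In mammals many such boundaries are bound by the protein CTCF, which stops loops extruded by cohesin. Sarcomeric myosin heavy chain genes serve muscle, so embryonic stem cells, which can form every tissue of the embryo, are not a cell type known for the Myh15 protein.

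The series asked about DNA elements around Dppa2 and Dppa4 that set when and where DNA replicates. By the labels there were 14 samples of 10 kinds, all from Cas/129 hybrid cells: mESC, NPC (neural precursor cells), 100k.del, 145k.del, 18k.del, 680kinv, abc.del, ab.del, bc.del and c.del, with 1 sample in each of 6 groups and 2 in each of the other 4. None of these labelled samples could be tied to the values used here, which came from 2 pooled matrices, one named untreated mESC by the depositors and the other mESC with auxin for 2 days. In engineered cells this plant hormone makes a tagged protein degrade; neither the treatment nor such a protein appears in the labels, and no source used here gives the strain or clone behind each matrix.

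The matrices corresponded to 439849 read pairs untreated and 433895 after auxin. The 15 Myh15 bins held a median of 1693 and 1825 pairs. The fifth bin of the gene, starting at 49090001, held 42 and 55 pairs, while each of the others held at least 852 and 1020. Each condition had 1 pooled matrix and no replicates, so every comparison is between these libraries. Values are distance-corrected contacts, that is observed contact divided by the mean contact at the same distances in the same matrix, so that 1 is the mean. Brackets hold 95% intervals from the number of read pairs and cover counting error only. Intervals that also weight each pair by its balancing factors were wider by a median factor of 1.48 and are called weighted intervals. A value is called higher or lower in auxin only where the interval in brackets excluded 0 on the log2 scale, and weighted intervals are printed where they end such a call.

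The 250 bases taken as upstream of Myh15 and of Cip2a, the nearest listed gene across the boundary, are shown in the 5′ to 3′ direction. These stretches were chosen because the starts of both genes flank the boundary bin. They are RefSeq sequences of GRCm38.p6, at chr16:49057150-49057399 on the plus strand for Myh15 and chr16:48993938-48994187 on the plus strand for Cip2a, and capitals mark each CG dinucleotide.
Myh15: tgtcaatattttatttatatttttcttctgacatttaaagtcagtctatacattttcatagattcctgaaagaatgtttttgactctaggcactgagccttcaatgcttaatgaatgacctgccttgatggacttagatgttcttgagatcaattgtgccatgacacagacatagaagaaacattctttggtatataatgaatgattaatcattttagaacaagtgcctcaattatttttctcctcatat
Cip2a: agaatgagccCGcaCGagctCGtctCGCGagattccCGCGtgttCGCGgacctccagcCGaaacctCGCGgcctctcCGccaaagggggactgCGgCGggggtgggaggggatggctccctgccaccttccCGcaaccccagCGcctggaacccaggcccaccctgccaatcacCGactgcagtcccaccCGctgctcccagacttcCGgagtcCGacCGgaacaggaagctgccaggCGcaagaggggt
The Myh15 stretch held 0 CG dinucleotides and was 31.2% G and C, while the Cip2a stretch held 23 and was 68.8% G and C. Of 32851 such promoter stretches in the mouse table, 7.87% held no CG, and the median was 6. Most of the Cip2a stretch lies inside Dzip3, whose annotated gene body ends at 48994142. Its last bases lie inside the Cip2a gene body, which is annotated from 48994157. These letters describe the promoter windows only, since contacts were measured at 10 kb.

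Myh15 contacted the left side less than the mean for its distances in both matrices, and less so after auxin. Contact with the left side was 0.639 (0.624 to 0.655) untreated, from 6614 read pairs, and 0.781 (0.764 to 0.798) in auxin, from 8132. The log2 ratio of auxin over untreated was 0.29 (0.24 to 0.34). Contact with the right side was close to the mean, at 1.05 untreated and 1.10 in auxin, from 9563 and 10132 pairs. Its log2 ratio was 0.06 (0.02 to 0.10), a call that ended with the weighted interval (-0.00067 to 0.13) and turned to -0.03 (-0.07 to 0.007) after both matrices were balanced again without sparse bins. Contact among the gene's own bins was 1.06 and 1.04, with a log2 ratio of -0.02 (-0.11 to 0.06). Just outside the chosen set, the 3 bins between the left side and the gene, the boundary bin included, contacted the gene at 0.930 untreated and 0.903 in auxin.

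The size of the left-side difference depended on how bin pairs were averaged. Sums of contact, used above, are carried by near pairs. When the ratio was instead taken for each bin pair and averaged, which gives distant pairs equal weight, left-side contact was 0.928 untreated and 0.977 in auxin, a log2 ratio of 0.07 (0.03 to 0.12). Balancing again gave 0.18, and taking the expected contact only from pairs that do not cross the boundary bin gave 0.38.

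The lean of the gene toward its right side was smaller in auxin. The log2 ratio of left over right contact was -0.72 (-0.77 to -0.68) untreated and -0.50 (-0.54 to -0.45) in auxin, a change of 0.23 (0.16 to 0.29). Each of the 15 gene bins had less contact with the left than with the right in both matrices. The left side reaches 3530 kb and the right side 1810 kb from the gene. Over the range that both sides cover, the ratio went from -0.89 to -0.58, a change of 0.31 (0.24 to 0.37). Averaged per bin pair, the ratio was -0.26 and -0.24, and the change of 0.01 (-0.05 to 0.08) had an interval that included 0. Of all read pairs of the gene at 20 kb or more, 34.2% (33.5% to 34.9%, exact Clopper-Pearson) went to the left untreated and 38.5% (37.8% to 39.2%) in auxin. The right side took 49.4% and 48.0%, and pairs inside the gene took 12.1% and 10.1%. Of balanced contact, 33.7% untreated and 38.6% in auxin went to the left, where distance alone would have given 45.4% and 46.5%.

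**Figure D1:**
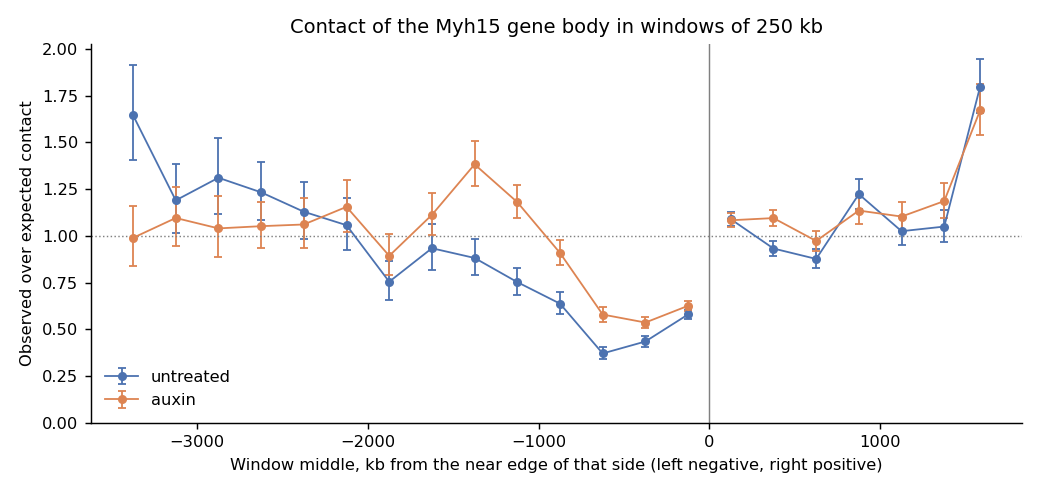
Observed over expected contact of the Myh15 gene body in windows of 250 kb, against the kilobases from the boundary bin (left, negative) or from the gene's last bin (right, positive), with 95% counting intervals as bars. Windows between 250 and 1500 kb to the left sit higher in auxin, while the farthest left window is at 1.64 untreated and 0.989 in auxin as deposited.

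The windows of 250 kb, counted outward from the boundary bin, show where the left-side contact lay. The lowest untreated contact of the gene was with the window at 48.27 to 48.52 Mb, which holds Dppa4, Dppa2 and part of Morc1, at 0.371 untreated and 0.579 in auxin (log2 0.64, 0.49 to 0.80). In auxin the lowest was the window at 48.52 to 48.77 Mb, with parts of Morc1 and Trat1, at 0.536, where the untreated value was 0.435. Beyond it, the windows at 47.77 to 48.02 Mb and 47.52 to 47.77 Mb held none of the genes listed by window. That listing left out some annotated genes, such as Dubr and Gm7275 elsewhere in the interval. Contact with the first of these windows went from 0.752 to 1.18 and with the second from 0.881 to 1.38, a log2 ratio of 0.65 each (0.47 to 0.83 and 0.45 to 0.85). Untreated contact there was under the mean for the distance, and auxin contact was above it. At the left end, the window at 45.52 to 45.77 Mb, with Slc9c1, Gcsam, Tmprss7, Tagln3 and Abhd10, moved the other way as deposited, from 1.64 to 0.989 (log2 -0.73, -1.06 to -0.41). This window was not recomputed alone with the expected contact from pairs that do not cross the boundary. With that expected contact, the left-side log2 ratio over 2000 kb went from -0.14 to 0.20. Over 2000 kb that expected contact comes from left-side pairs alone. Bin pairs farther apart than any pair of left-side bins had none and dropped out. The values -0.14 and 0.20 therefore rest on different sets of bin pairs. On the right, contact was 0.932 and 1.09 with the window at 49.45 to 49.70 Mb (log2 0.23, 0.15 to 0.32). The highest right-side contact in both matrices was with the last stretch of the interval, from 50.70 to 50.87 Mb, at 1.80 and 1.67. Long distances are filled only by pairs near the ends of the interval, and with the expected contact from pairs that do not cross the boundary that stretch gave 1.44 and 1.53.

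By distance, the left-side difference was largest from 500 to 2000 kb. At 500 to 1000 kb, left-side contact of the gene was 0.381 from 1069 pairs untreated and 0.588 from 1645 pairs in auxin, a log2 ratio of 0.63 (0.51 to 0.74). At 1000 to 2000 kb it was 0.820 and 1.17 from 1256 and 2012 pairs, a log2 ratio of 0.51 (0.41 to 0.61). Closer in, contact stayed low in both matrices: it was 0.619 and 0.599 at 20 to 100 kb (log2 -0.05, -0.32 to 0.22) and 0.585 and 0.621 at 250 to 500 kb (0.09, -0.02 to 0.19). After balancing again the ratio at 20 to 100 kb was -0.32 (-0.59 to -0.05), and without sparse bins that at 250 to 500 kb was 0.11 (0.008 to 0.21). At 100 to 250 kb it was 0.543 and 0.625 (0.20, 0.09 to 0.32), which turned to -0.05 (-0.16 to 0.06) after balancing again. Over 2000 kb it was 1.16 and 1.05 (-0.14, -0.25 to -0.03), a call that ended with the weighted interval (-0.31 to 0.02) and without sparse bins (-0.18 to 0.04) and turned to 0.20 with the expected contact from pairs that do not cross the boundary.

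On the right, the gene's contact varied less between distances. It was 1.10 and 0.992 at 20 to 100 kb, 1.06 and 1.09 at 100 to 250 kb, and 1.19 and 1.20 at 1000 to 2000 kb, and as deposited these 3 intervals of the log2 ratio included 0. After balancing again the ratio at 20 to 100 kb was -0.26 (-0.41 to -0.10). At 1000 to 2000 kb it was -0.11 (-0.19 to -0.02) after balancing again and 0.17 (0.08 to 0.25) with the expected contact from pairs that do not cross the boundary, so its direction was not settled. At 250 to 500 kb it was 1.04 and 1.12 (log2 0.11, 0.03 to 0.19; weighted -0.01 to 0.23), and at 500 to 1000 kb 0.958 and 1.06 (0.15, 0.07 to 0.23), which was 0.03 (-0.05 to 0.12) after balancing again. Set against each other at the same distance, left over right at 500 to 1000 kb had a log2 ratio of -1.33 untreated and -0.85 in auxin. At 1000 to 2000 kb it was -0.54 (-0.64 to -0.44) untreated and -0.04 (-0.13 to 0.05) in auxin, where the interval included equal contact with both sides.

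**Figure D2:**
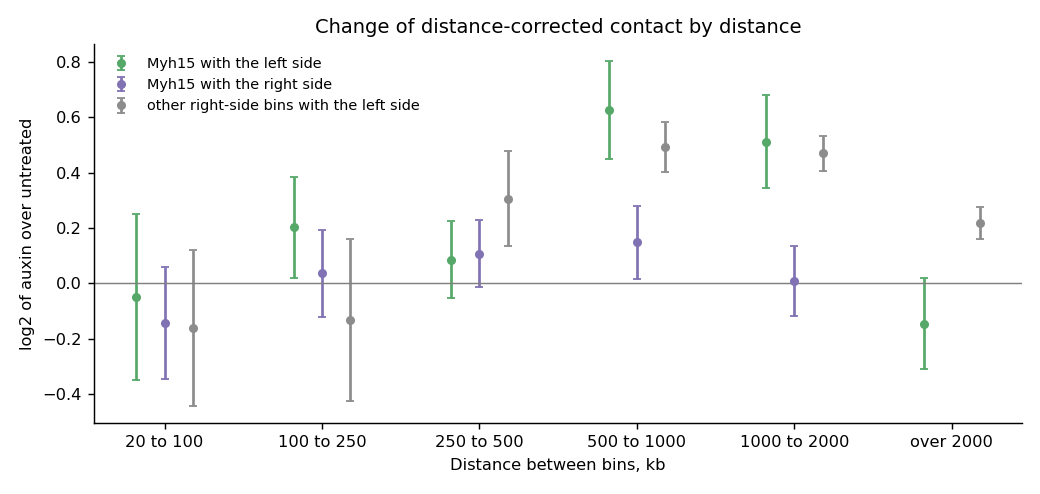
Log2 of auxin over untreated distance-corrected contact against the distance between bins in kb, for Myh15 with the left side, Myh15 with the right side and the 169 other bins right of the boundary bin with the left side, with weighted 95% intervals as bars. Both series that cross the boundary lie above 0.4 from 500 to 2000 kb, and over 2000 kb Myh15 lies at -0.14 while the other bins, over all their distances, lie at 0.22.

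The left-side difference summed over all distances was not particular to Myh15. With a log2 ratio of at least 0.32 between auxin and untreated contact with the whole left side, 6 of the 14 gene bins that were not sparse were higher (42.9%), where the background over all 179 bins right of the boundary bin was 52.5%. The share among the 165 other bins was 53.3%, and 0.559% of all bins were lower by that much. The mean log2 ratio was 0.31 over the gene bins and 0.35 over the others, of which 91 lay above the gene's mean. Of 12 blocks of up to 150 kb to the right of the gene, 11 were higher in auxin with the left side, by log2 ratios from 0.04 to 0.49 over all 12, and 8 of the 12 exceeded the gene.

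The gene was also compared with its neighbours by the parts of the left side that they touched. This comparison was added after seeing the data and divides the left side by distance from the boundary bin, setting the gene beside 11 full blocks of 150 kb to its right, the first of which adjoins it. With the section up to 1000 kb (48.02 to 49.02 Mb), the gene went from 0.514 to 0.630, a log2 ratio of 0.29 (0.23 to 0.35). The next block went from 0.445 to 0.619, a ratio of 0.48 (0.39 to 0.56). The gene minus this block was -0.18 (-0.28 to -0.08; weighted -0.35 to -0.01), and the median ratio over the 11 blocks was 0.48. Untreated, the gene had more contact with the near section than this adjoining block, but 7 of the 11 blocks lay above the gene untreated and 8 in auxin. On its other side, the pair of bins between the boundary bin and the gene gave 0.664 and 0.689, a ratio of 0.05 (-0.06 to 0.17).

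With the middle section (47.02 to 48.02 Mb), the gene went from 0.826 to 1.17, a log2 ratio of 0.50 (0.39 to 0.61). Untreated, 2 of the 11 blocks lay above it, and in auxin the eleventh block was level with it, at 1.17 (1.08 to 1.26). The adjoining block gave 0.780 and 1.09, and its ratio of 0.48 differed from that of the gene by 0.02 (-0.16 to 0.19). The pair of bins between the boundary bin and the gene did not resemble the gene here. It gave 0.879 and 0.853, a ratio of -0.04 (-0.31 to 0.23). The gene minus this pair was 0.54 (0.25 to 0.83, weighted 0.16 to 0.93).

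With the far section (45.52 to 47.02 Mb), the gene had 1200 pairs untreated and 1314 in auxin, and its contact went from 1.22 (1.15 to 1.29) to 1.07 (1.02 to 1.13). In the untreated matrix, this was above all 11 blocks, which ranged from 0.810 to 1.04. At the distances of the outer blocks, the mean comes largely from these blocks themselves, which holds them near 1 on average. The rank of the gene above those outer blocks is therefore a description only. The adjoining block went from 0.868 (0.804 to 0.936) to 0.975 (0.911 to 1.04), in the other direction as deposited. Its log2 ratio was 0.17 (0.02 to 0.32), a call that ended with the weighted interval (-0.03 to 0.37). Gene over adjoining block was a log2 ratio of 0.49 (0.35 to 0.63) untreated and 0.14 (0.01 to 0.27; weighted -0.04 to 0.32) in auxin, and the difference of -0.35 (-0.53 to -0.16) also excluded 0 with the weighted interval (-0.61 to -0.08). That difference was -0.34 with the expected contact from pairs that do not cross the boundary, -0.25 after balancing again and -0.24 without sparse bins. The gene's own log2 ratio with the far section was less settled, at -0.18 (-0.29 to -0.06) as deposited, 0.16 with that expected contact and -0.11 (-0.22 to 0.007) without sparse bins. The farthest bin pairs had no such expected contact and dropped out of the values -0.34 and 0.16. The pair of bins between the boundary bin and the gene resembled the gene, at 1.41 and 1.07.

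**Figure D3:**
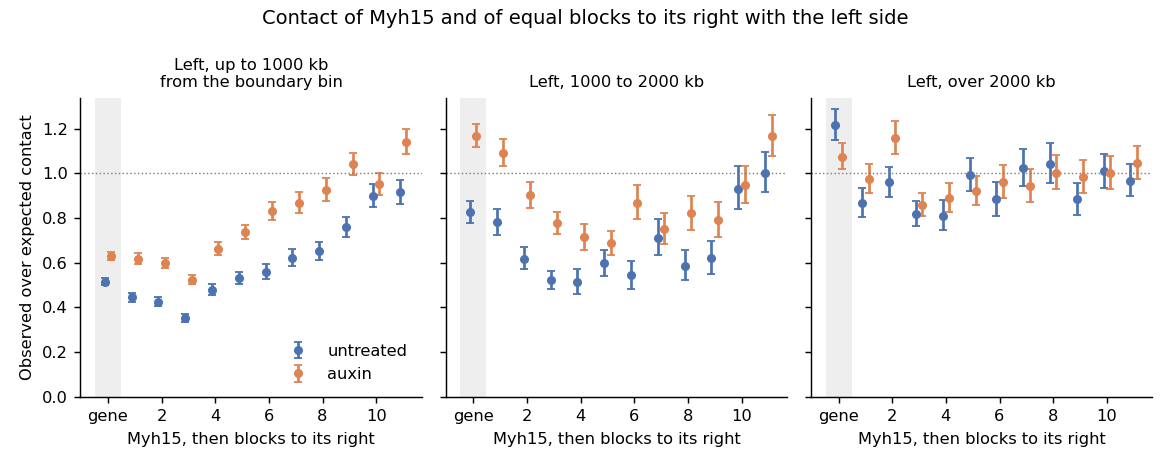
Observed over expected contact of Myh15 (shaded) and of the 11 full blocks of 150 kb to its right with the left side, split by distance from the boundary bin, with 95% counting intervals as bars. With the section over 2000 kb, Myh15 untreated is at 1.22 and all 11 blocks are at or below 1.04. The distance correction holds the outer blocks in that section near 1 on average.

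By distance between bins, the gene differed from the other bins in a way that changed from band to band. Over 2000 kb and up to the farthest distance of the gene, Myh15 gave 1.16 and 1.05 while the other bins right of the boundary bin gave 0.750 and 0.918, and the gene minus the others was -0.44 (-0.55 to -0.32). Gene over others was a log2 ratio of 0.63 (0.54 to 0.71) untreated and 0.19 (0.11 to 0.27) in auxin. At a given distance the gene and the other bins reach different left-side partners, so this compares different regions. At 1000 to 2000 kb the gene exceeded the others by 0.49 untreated and 0.53 in auxin, and its change between matrices differed from theirs by 0.04 (-0.07 to 0.15). At 500 to 1000 kb it had less untreated contact than the others (-0.12, -0.22 to -0.02). No weighted interval was computed for gene over others within either matrix, so these values rest on the narrower intervals. The change of the gene at 500 to 1000 kb exceeded that of the others by 0.13 (0.008 to 0.26, weighted -0.06 to 0.33). The change of the gene minus that of the others was 0.34 (0.10 to 0.57; weighted -0.01 to 0.68) at 100 to 250 kb and -0.22 (-0.36 to -0.08; weighted -0.44 to 0.002) at 250 to 500 kb.

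Along the gene, right-side contact increased toward the gene's end in both matrices, and left-side contact untreated was higher in its first bins than in its last. Without the sparse bin, the first 5 bins of the gene had a left-side contact of 0.719 untreated and 0.910 in auxin (0.642 and 0.780 with it). The middle 5 had 0.641 and 0.758, and the last 5 had 0.635 and 0.807. Right-side contact was 0.965 and 1.08 in the first 5 without the sparse bin, 1.02 and 1.10 in the middle 5, and 1.20 and 1.19 in the last 5. The right-side log2 ratio of the last 5 bins, which are nearest to the right side, was -0.01 (-0.08 to 0.05). Over the 14 bins that were not sparse, Spearman's rho of right-side contact with position in the gene was 0.75 untreated and 0.69 in auxin. For left-side contact rho was -0.58 and -0.15. These bins are neighbours that share partners and libraries, so rho is a description.

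Single bins of the gene had left-side contacts from 0.562 to 0.760 untreated and from 0.701 to 1.00 in auxin, leaving out the sparse one. In auxin all 14 lay above their untreated values. The interval of the ratio was above 0 in 12 of them, and the weighted interval in 10; as the gene was chosen by this difference, these counts are a description. The bin at the gene's start went from 0.760 to 0.954 (log2 0.33, 0.18 to 0.48). The largest ratios were in bin 14, from 0.590 to 0.904 (0.62, 0.38 to 0.85), and in bin 4, from 0.676 to 1.00 (0.57, 0.35 to 0.80). Bin 8 had the smallest, from 0.743 to 0.769 (0.05, -0.12 to 0.21). The sparse bin 5 gave 0.313 and 0.225 from 15 and 14 pairs.

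**Figure D4:**
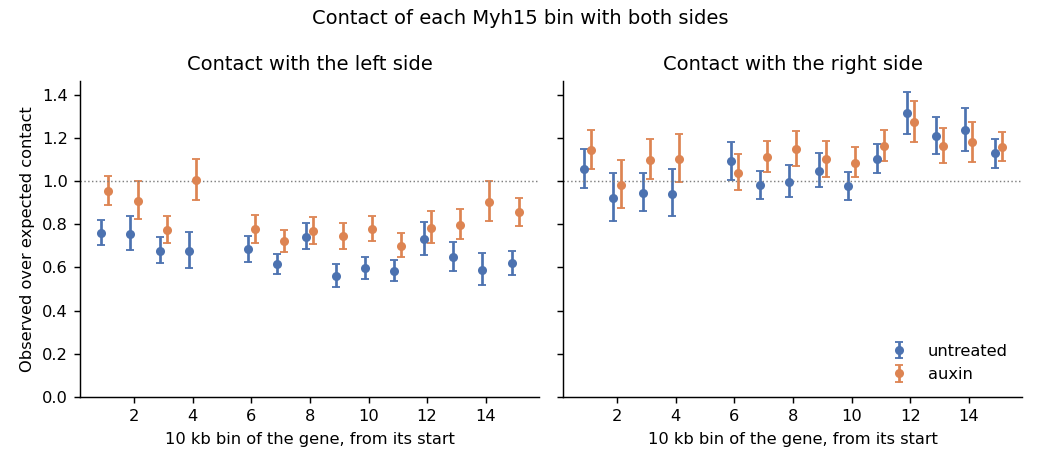
Observed over expected contact of the 14 Myh15 bins that were not sparse with the left side and with the right side, against bin number from the gene's start, with 95% counting intervals as bars. Left-side contact lies below right-side contact in each bin, and the left-side points in auxin lie above the untreated ones.

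From 500 to 2000 kb to the left, partner bins of 10 kb gave the same picture on a finer scale. Of 459 partner bins with at least 10 pairs to the gene, 106 had at least 1.5-fold higher contact in auxin, a background of 23.1%, and 51 had at least 1.5-fold lower contact, 11.1%. On the left side 84 of 296 were higher and 42 were lower, and on the right side 22 of 163 were higher and 9 were lower. Among left-side bins at 500 to 2000 kb, 56 of 134 were higher and 5 were lower. Among those over 2000 kb, 20 of 116 were higher and 36 were lower. Counted instead by an interval that excluded 0, 58 of the 459 were higher in auxin and 12 were lower. On the left these counts were 29 and 1 at 500 to 2000 kb, and 4 and 5 over 2000 kb. Partner bins are neighbours, so these counts are not counts of independent regions. The left-side partner with the highest auxin contact, among those with at least 20 pairs in both matrices, started at 47690001. That bin overlapped no annotated gene. It went from 1.18 with 27 pairs to 2.20 with 42 (log2 0.91, 0.18 to 1.66). As this partner was picked by its auxin value, a high ratio was favoured. The left-side partner ranked first by its untreated value started at 47640001 and went the other way. Its contact was 1.70 with 25 pairs untreated and 1.17 with 29 in auxin (log2 -0.54, -1.36 to 0.30). Since its untreated value was used to pick it, a low ratio was favoured.

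Contacts with other genes were taken from 7 lists of genes of the interval, of which 24 of 27 could be placed. Of these 24, 4 were higher in auxin (16.7%) and 3 were lower (12.5%), and the median log2 ratio over the 24 was -0.07. The counts with weighted intervals were 3 and 1.

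The germline and early embryo genes on the near left held the largest ratios. Dppa4, a DNA-binding protein of pluripotent cells, lies 763.1 kb from the gene. Myh15 contacted its bins at 0.276 with 38 pairs untreated and at 0.755 with 95 pairs in auxin, a log2 ratio of 1.45 (0.90 to 2.03). Its partner Dppa2 gave 0.277 and 0.539 from only 11 and 24 pairs, with an interval that included 0 (0.96, -0.12 to 2.14). Morc1, an ATPase that silences transposons in male germ cells, went from 0.291 with 445 pairs to 0.489 with 755 (0.75, 0.58 to 0.92). Slc9c1, a sodium and proton exchanger of sperm at the far left end, was lower in auxin, at 1.56 and 0.880 from 38 and 32 pairs (-0.82, -1.55 to -0.11; weighted -1.66 to 0.02; -2.71 to 1.63 with the expected contact from pairs that do not cross the boundary). The last of these Slc9c1 intervals leaves out bin pairs too far apart to have such an expected contact. Of the 4 genes of this list, 2 were higher, 1 was lower and 1 included 0. In the untreated matrix, contact with Dppa4, Dppa2 and Morc1 was under 0.3 of the mean for the distance.

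The neighbours across the boundary stayed low. Cip2a, an inhibitor of the phosphatase PP2A and 37.7 kb from the gene, gave 0.641 and 0.654 from 510 and 462 pairs (0.03, -0.16 to 0.21), and balancing again gave -0.20 (-0.38 to -0.01). Dzip3, a ubiquitin ligase, went from 0.478 to 0.573 (0.26, 0.12 to 0.40), which turned to -0.03 (-0.17 to 0.11) after balancing again; 1 of its 8 bins was sparse. Trat1, an adaptor of the T-cell receptor, gave 0.721 and 0.699. For Retnla, Retnlb and Retnlg, which encode secreted resistin-like proteins, the 3 intervals included 0, with contacts between 0.645 and 0.804 untreated and between 0.665 and 0.773 in auxin.

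The 10 listed genes over 2000 kb to the left differed from the near ones, on few read pairs. Untreated contact was above the mean for the distance for all 10, from 1.06 for Nectin3, a cell adhesion gene, to 2.16 for Tagln3, an actin-binding protein of the calponin family. In auxin 3 of the 10 were above the mean. As deposited, all 10 values lay below their untreated ones, with an interval that excluded 0 for Slc9c1 and Tagln3. With the expected contact from pairs that do not cross the boundary, 6 of the 10 lay below and 4 above (Gcsam, Gm4737, Nectin3 and Tmprss7), and 0 of the 10 intervals excluded 0. Bin pairs beyond the longest left-side distance had no such expected contact and dropped out for Slc9c1, Gcsam and Tmprss7. For these genes the change of value or call therefore compares different sets of bin pairs. Tagln3 went from 2.16 to 0.770 on only 12 and 10 pairs (-1.49, -2.86 to -0.15), and the interval under that alternative was -2.37 to 0.33. Nectin3 gave 1.06 and 0.989 (-0.10, -0.46 to 0.26), and its ratio was 0.11 after balancing again and 0.05 without sparse bins. Phldb2, a cortical scaffold protein with the most pairs of the 10, gave 1.21 and 0.993 from 146 and 147 pairs (-0.29, -0.63 to 0.05), and balancing again gave -0.35 (-0.69 to -0.01). Cd96, a receptor of T and natural killer cells, gave 1.37 and 0.943 (-0.54, -1.12 to 0.03). These genes lie in one stretch and some share bins, so they are no independent set.

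On the gene's own side, Ift57, a protein of the intraflagellar transport of cilia, went from 0.766 with 318 pairs to 0.925 with 401 (0.27, 0.06 to 0.49; weighted -0.11 to 0.66). Cd47, a surface protein that inhibits phagocytosis, went from 1.09 to 0.930 (-0.23, -0.44 to -0.01; weighted -0.54 to 0.09). Bbx, an HMG-box gene 992.3 kb away, gave 1.03 and 1.11 (0.11, -0.04 to 0.26), and the expected contact from pairs that do not cross the boundary gave 0.25 (0.10 to 0.40).

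**Figure D5:**
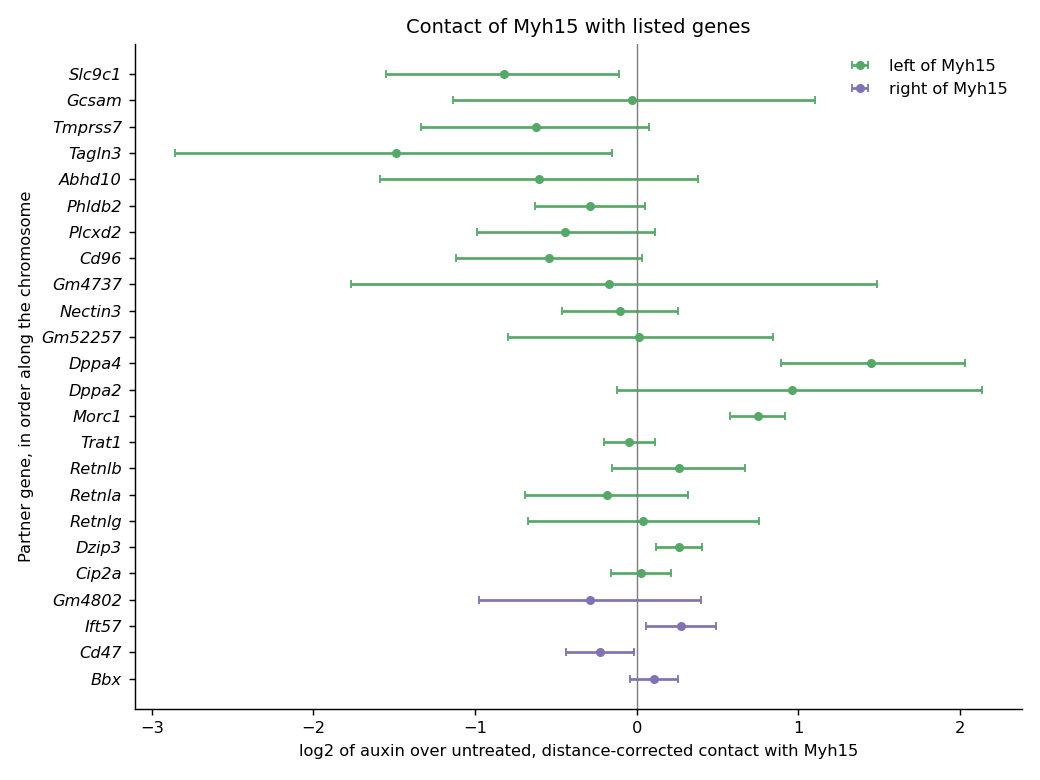
Log2 of auxin over untreated distance-corrected contact between Myh15 and each of the 24 placed genes, in order along the chromosome, with 95% counting intervals as bars. Dppa4 at 1.45 and Morc1 at 0.75 lie farthest above 0 among genes whose interval excludes 0, and the 10 genes at the far left lie below 0 as deposited.

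The genes whose contact profile was most like that of Myh15 all lay on its right side. Likeness was Spearman's rho of distance-corrected contact over windows of 50 kb at least 100 kb from both genes, among 26 protein-coding genes. Bbx was first, with rho of 0.56 untreated and 0.30 in auxin over 89 windows, followed by Ift57 at 0.48 and 0.25 and Cd47 at 0.45 and 0.24, each over 93 windows. These genes held ranks 1 to 3 in both matrices. The profile of Myh15 itself had a rho of 0.45 between matrices over 99 windows. All these windows share libraries, bin factors and noise at low counts, so the values describe these matrices only.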

How the data were processed

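The deposited values are contact signal without a unit in 2 symmetric matrices of 10 kb bins on chromosome 16; per the deposited file names, replicates were combined by the authors and the matrices were balanced by iterative correction. The submitters' processing notes name mm10 and Trim Galore. The aligner, read filters and balancing software are not named in the sources used. Each bin's stated position was taken as its start. Of the 14 labelled samples none entered a comparison. Their libraries, per the labels' protocols, used MboI digestion and capture of 45488946 to 50879849.

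Dividing each nonzero value by 1 factor per bin gave whole read pairs (100% within 0.02 of a whole number), and these gave depth and intervals. The log2 intervals are exact Clopper-Pearson intervals of the auxin share of pairs, centred on the ratio of distance-corrected contacts. Intervals of single contacts are exact Poisson intervals and ratios of ratios use an exact conditional odds ratio. Read pairs amplified from 1 molecule are not independent. No p-value was computed. Scripts were tested on simulated data (Python 3.11.15, numpy 2.4.6, scipy 1.17.1, pandas 2.3.3, matplotlib 3.10.9), where the weighted intervals held each simulated left-side ratio and the narrower ones missed the larger ratios. With 1 simulated pair of matrices per ratio, these outcomes cannot measure how often either interval holds. The distance correction also included the simulated differences, which can lower the ratio found. Bins with under 100 pairs in either matrix are called sparse (18 of 535, and 1 of the gene's 15). Distance correction sets the mean at each distance to 1, so that more contact in some pairs lowers the value of others at that distance.

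The gene, its bins and the gene lists were chosen with earlier results of these data known. Named genes were Myh15, the listed genes that the annotation places at least 20 kb away, in full where the interval excluded 0, and the 3 genes with the most similar untreated profile; Dppa2, Cip2a, Trat1, Nectin3, Phldb2, Cd96 and Bbx are given in full for context. Cd200, Guca1c and Zbed2 were not analysed here. Alternatives were the minimum distance, the expected contact, sparse bins, balancing, averaging, the gene's bins and the fold used for counts. With the expected contact from pairs that do not cross the boundary, bin pairs farther apart than any such pair dropped out.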

Additional observations from a re-analysis of the deposited data

How the results depend on the processing

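Over 232 values recomputed under alternatives, 195 stayed within their intervals (counts within 1.5 times), 32 moved further and 5 called values changed direction. The 232 include values with weighted intervals, which leave the log2 ratio unchanged, so those ratios stayed within by construction. Of 216 recomputed values with an interval, 19 lost a call, 9 gained one and 2 took the opposite call. The cause was not tested for any of these changes. The left-side log2 ratio was 0.38 with the expected contact from pairs that do not cross the boundary, 0.18 after balancing again, 0.075 averaged per bin pair and 0.37 within the right side's reach. The right-side ratio was 0.11 with that expected contact and -0.034 after balancing again. The change of left over right was 0.013 averaged per bin pair and 0.31 within the right side's reach. The ratio inside the gene was -0.12 after balancing again. The count of gene bins at a log2 ratio of at least 0.32 was 10 with the expected contact from non-crossing pairs (87.9% of other bins) and 2 after balancing again (43.0%), and it was 1 at 1.5-fold (18.2%). Partner bins at least 2-fold higher numbered 39, and listed genes with a weighted interval excluding 0 numbered 4. After balancing again the left-side ratio at 100 to 250 kb was -0.049 and that of Dzip3 was -0.030. With the expected contact from non-crossing pairs, the left-side ratio over 2000 kb was 0.20 and that with the far section was 0.16. Both leave out bin pairs beyond the longest non-crossing distance.

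Leaving out each gene bin in turn gave left-side ratios of 0.26 to 0.31, right-side ratios of 0.05 to 0.08 and changes of left over right of 0.19 to 0.25. Weighted intervals and the comparison by sections of the left side were chosen after seeing the data. No paired analysis was possible because each condition had 1 pooled matrix. Of left-side bin pairs, 52.2% untreated and 44.9% in auxin were empty, so values of single distant genes rest on few read pairs.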
